A study of Arabidopsis thaliana with 12 samples.

Results

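SAUR genes (SMALL AUXIN UP RNA) encode short plant proteins of auxin-driven cell expansion, and 39 listed Arabidopsis thaliana loci of this family were followed here. They were found by locus name, as the rows of the deposited expression table whose identifier, before its dot, was a listed locus. Of the 39, 38 had a row among the 23387 genes of the table, and SAUR63 (AT1G29440) was not analysed here. The loci fall into 5 tandem clusters, named here by the shared start of their locus names, and 14 genes outside them. These groups rest on the listed loci alone. Unlisted SAUR genes have locus numbers next to SAUR50 of AT4G34, and next to SAUR6 and SAUR51 outside the clusters. AT5G18 holds SAUR19 (AT5G18010), SAUR20 (AT5G18020), SAUR21 (AT5G18030), SAUR22 (AT5G18050), SAUR23 (AT5G18060) and SAUR24 (AT5G18080). AT1G29 holds SAUR61 (AT1G29420), SAUR62 (AT1G29430), SAUR64 (AT1G29450), SAUR65 (AT1G29460), SAUR66 (AT1G29500) and SAUR68 (AT1G29510), beside SAUR63. AT4G34 holds SAUR50 (AT4G34760), SAUR1 (AT4G34770), SAUR3 (AT4G34790), SAUR4 (AT4G34800) and SAUR5 (AT4G34810). AT4G38 holds SAUR14 (AT4G38840), SAUR15 (AT4G38850) and SAUR16 (AT4G38860), and AT3G03 holds SAUR29 (AT3G03820), SAUR28 (AT3G03830), SAUR27 (AT3G03840) and SAUR26 (AT3G03850). The genes outside the clusters are SAUR6 (AT2G21210), SAUR8 (AT2G16580), SAUR9 (AT4G36110), SAUR10 (AT2G18010), SAUR25 (AT4G13790), SAUR32 (AT2G46690), SAUR36 (AT2G45210), SAUR41 (AT1G16510), SAUR51 (AT1G75580), SAUR71 (AT1G56150), SAUR72 (AT3G12830), SAUR76 (AT5G20820), SAUR77 (AT1G17345) and SAUR78 (AT1G72430). SAUR25 had a row but was too low for the test, which left 37 tested genes, 24 of them in clusters.

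RNA was sequenced from seedlings at 7 days of age, raised at 21 °C in short days and then kept for 12 h at 27 °C. There were 4 genotypes with 3 libraries each: the wild type Col, h3.3kd with lowered histone H3.3, the H2A.Z mutant line h2a.z, and h3.3kd;h2a.z with both, called the combined line from here on. Its libraries are written combined 1 to combined 3. In the genotype field the knockdown is written h3.3kd-1, both alone and combined. The labels do not list the alleles and do not say whether replicates were separate cultures, so p-values measure only the spread between these libraries, which may be technical. All plants were warmed, so no value below describes a response to temperature. The RNA came from seedlings with all their tissues, and fewer cells of a type and less RNA per cell cannot be told apart in any value below.

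Expression is given as TPM, transcripts per 1000000, which corrects for transcript length. Each targeted gene was called lower than in Col in the lines named after it. The H3.3 genes HTR4 (AT4G40030), HTR5 (AT4G40040) and HTR8 (AT5G10980) stood at 200.4 to 544 TPM in Col and at 8.12 to 96.5 TPM in the libraries of the lines with the knockdown. Of the H2A.Z genes, HTA11 (AT3G54560) stood at 32.8 to 64.2 TPM in Col and 1.59 to 4.62 TPM in the lines with h2a.z, and HTA8 (AT2G38810) was listed at 0 in 4 of those 6 libraries. HTA9 (AT1G52740) was lowered less in the combined line, at 77.1 to 92.7 TPM, than in h2a.z, at 30.5 to 34.4 TPM. Some of these genes were also called lower in the other single line. In h2a.z against Col, HTR5 (-0.65 ± 0.17, adjusted p = 0.014) was called lower, ending when Col 1 (0.056), h2a.z 1 (0.051) or h2a.z 2 (0.062) was left out, and so was HTR8 (-0.49 ± 0.16, adjusted p = 0.045), which ended under 12 of 18 alternatives (0.013 to 0.18 over all of them). In h3.3kd against Col, HTA8 was called lower (-0.70 ± 0.22, adjusted p = 0.04), which ended under 16 of 19 alternatives (0.02 to 0.24). The library h3.3kd 2 lay farthest from the mean of its genotype and had the fewest genes above 0 (19590, against 20831 to 22019 in the others). It listed 7 SAUR genes at 0, SAUR5, SAUR9, SAUR15, SAUR25, SAUR61, SAUR76 and SAUR77. Estimated depth was 14.2 to 17.1 M reads per library (M, 1000000), and 10 of the 38 genes had a median under 20 estimated reads, so their values carry the most counting error. Leaf and photosynthetic markers were present in every library, with 12 of 12 above 0.

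SAUR genes are among the fastest auxin-induced transcripts known. The SAUR19 family inhibits type 2C protein phosphatases of the PP2C.D class, which otherwise switch off the proton pumps of the plasma membrane; active pumps acidify the cell wall and the cell expands. Auxin response factors, the PIF factors of light and warmth signalling and the brassinosteroid factor BZR1 are known to switch SAUR genes on, and in warm seedlings the family is known for its part in hypocotyl growth. The histone variant H3.3 is known for its place in the bodies of active genes, and H2A.Z for its place beside the start of genes and over genes that respond to signals.

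The 6 genes of the AT5G18 cluster are near-copies, which bears on how far their values are separate measurements. Their first 60 coding bases are shown in TAIR10.1 coordinates, with capitals where a base differs from SAUR19. The stretches lie at chr5:5963246-5963305 (minus strand), chr5:5966521-5966580 (minus), chr5:5968527-5968586 (plus), chr5:5974904-5974963 (minus), chr5:5976030-5976089 (plus) and chr5:5983840-5983899 (plus), each inside the coding exon.
SAUR19: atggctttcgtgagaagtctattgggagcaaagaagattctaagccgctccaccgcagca
SAUR20: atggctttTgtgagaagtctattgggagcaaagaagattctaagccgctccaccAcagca
SAUR21: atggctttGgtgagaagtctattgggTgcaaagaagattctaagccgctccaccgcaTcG
SAUR22: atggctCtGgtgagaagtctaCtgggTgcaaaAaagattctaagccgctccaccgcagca
SAUR23: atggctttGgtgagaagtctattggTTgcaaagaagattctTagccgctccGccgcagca
SAUR24: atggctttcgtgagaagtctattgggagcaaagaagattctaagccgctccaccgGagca
SAUR24 differed from SAUR19 at 1 of the 60 bases and SAUR22 and SAUR23 at 5 each. Over the whole coding sequence, the 15 pairs of this cluster were 87.7% to 95.2% identical. Pairs of the AT3G03 cluster were 77.7% to 86.3% identical and those of AT1G29 61.0% to 89.3%, while AT4G34 (46.6% to 61.3%) and AT4G38 (49.4% to 59.6%) were more diverged. Of all 50-base windows in the annotated exons, 0.573% to 18.5% in the 6 genes of AT5G18 occur at another place in the genome. The share was 23.2% in SAUR62, 33.9% in SAUR68, 0.435% in SAUR66 and, outside the clusters, 4.03% in SAUR8. In AT3G03, AT4G34 and AT4G38 the share was 0%. The sources used here do not say how reads that match several genes were counted. Values of AT5G18, SAUR62, SAUR66, SAUR68 and SAUR8 may thus mix in reads of other places or lack reads of their own. Cluster sums are given beside those in clusters. The AT1G29 sum lacks SAUR63, which is 89.0% identical to SAUR62 and 89.3% to SAUR68.

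In Col, members had like levels in some clusters and unlike levels in others. TPM is per length and may be compared between genes, with the limit on shared windows given above. The 6 genes of AT5G18 were close, with mean levels from 18.4 TPM (SAUR23) to 24.6 TPM (SAUR20). AT3G03 was also even, from 7.90 TPM (SAUR28) to 12.0 TPM (SAUR29). The other 3 clusters were uneven, from 1.21 (SAUR61) to 22.2 TPM (SAUR66) in AT1G29, from 2.24 (SAUR5) to 69.2 TPM (SAUR50) in AT4G34 and from 1.63 (SAUR15) to 63.9 TPM (SAUR14) in AT4G38. Outside the clusters, SAUR78 (67.7 TPM), SAUR6 (63.9 TPM) and SAUR32 (62.5 TPM) were the highest, and SAUR25 was lowest at 0.27 TPM.

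**Figure D1:**
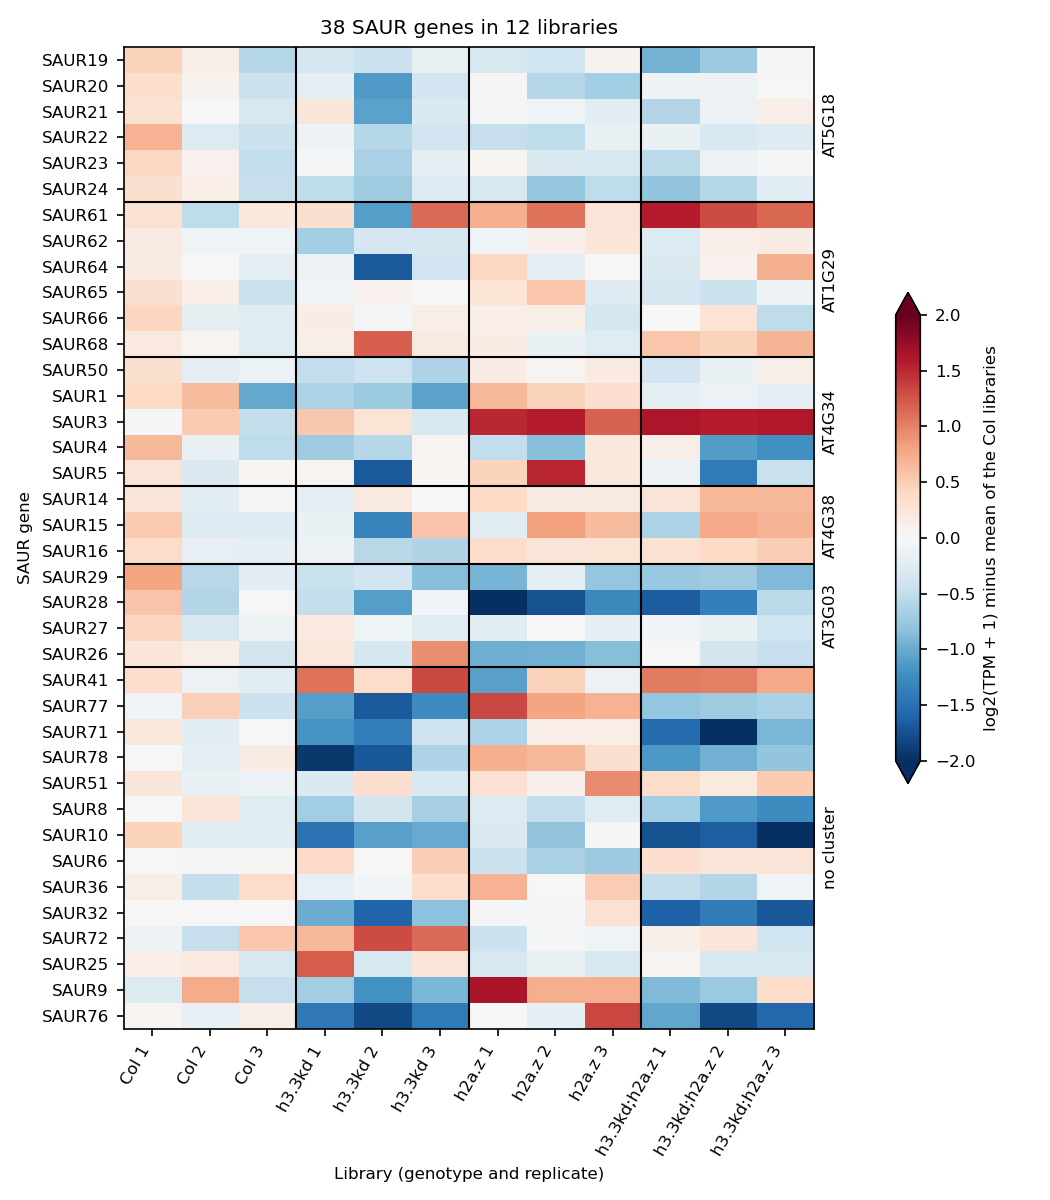
Each cell is log2(TPM + 1) of a SAUR gene (rows, 38 genes in locus order within their cluster) in a library (columns, 12) minus the mean of the 3 Col libraries, so blue is lower and red is higher than Col, and the colour scale ends at -2 and 2. The AT5G18 rows are pale except in single libraries, whereas SAUR32, SAUR76, SAUR77, SAUR78 and SAUR10 are blue in the h3.3kd and combined-line columns and SAUR3 is red in the h2a.z and combined-line columns.

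Which SAUR genes follow a lowered H3.3 supply was asked by setting h3.3kd against Col. Of 37 tested genes, 7 were called (1 higher, 6 lower, 18.9%), against 17.3% of all 19937 tested genes (5.41% higher and 11.9% lower), so the share was near the background. Genes were called at an adjusted p under 0.05 over all tested genes, and a value in brackets after an alternative setting or a left-out library is the adjusted p there. The median log2 fold change was -0.41 over the SAUR genes and -0.12 over all genes. Without Col 1 these medians were -0.16 and -0.09, and without h3.3kd 2 they were -0.24 and -0.19. With replicate number as a block in a model of Col and h3.3kd, whose same-numbered libraries deviated together, 4 SAUR genes were called, all lower, and without Col 1 there were also 4 (0 higher, 4 lower). Leaving out h3.3kd 2 gave 9 (3 higher, 6 lower). The calls over all genes moved as well, from 3450 to 1728 with that block, 2148 without Col 1 and 4412 without h3.3kd 2. By group, 6 of the 13 tested genes outside the clusters were called, and 1 of the 24 inside them.

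In h2a.z against Col, 5 SAUR genes were called (2 higher, 3 lower, 13.5%), against 15.1% of all genes (10.5% higher and 4.56% lower). Leaving out Col 1, h2a.z 1 or h2a.z 2 gave 3, and leaving out h2a.z 3 gave 2. Over all genes the 3009 calls became 2524, 2096, 1768 and 1842 in that order. In the combined line against Col, 10 were called (3 higher, 7 lower, 27.0%), against 18.7% (6.17% higher and 12.6% lower), and 6 without combined 2, where calls over all genes went from 3738 to 2356. These 3 comparisons share the Col libraries. Against h3.3kd, the combined line had 3 called genes (2 higher, 1 lower, 8.11%), against 4.25% (2.43% and 1.83%), with 1 when no other genotype was modelled and 1 when either combined 2 or combined 3 was left out. Calls over all genes went there from 848 to 380, 419 and 467.

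The combined line against h2a.z sets the H3.3 knockdown in plants with h2a.z. Whether these lines differ in more than the knockdown was not tested, and HTA9 was higher in the combined line. There were 12 called SAUR genes (2 higher, 10 lower, 32.4%), against 24.7% of all genes (5.34% higher and 19.3% lower). The count was 7 when either h2a.z 1 or combined 2 was left out, where calls over all genes went from 4916 to 3584 and 3597. By group, 11 of the 13 genes outside the clusters were called and 1 of the 24 inside them. The direct comparison of h3.3kd with h2a.z had 16 (5 higher, 11 lower, 43.2%), against 34.1% (9.40% higher and 24.7% lower). For the interaction, which asks whether the H3.3 effect differs between h2a.z plants and plants with H2A.Z, limma called 0 of 37 genes (5 at an unadjusted p under 0.05), against 2.49% of all genes (0.637% higher and 1.85% lower). Without h3.3kd 2 it called 1, SAUR32 (-0.75 ± 0.18, adjusted p = 0.048). With 3 libraries a genotype, a difference between the effects may have been missed. Median log2 fold changes of the SAUR genes, with those of all genes in brackets, were -0.04 (0.05) in h2a.z and -0.23 (-0.10) in the combined line against Col, 0.05 (0.01) in the combined line against h3.3kd, -0.26 (-0.17) in h3.3kd against h2a.z and 0.14 (-0.04) for the interaction. Single libraries moved these medians too. Without Col 1 that of the SAUR genes was 0.08 in h2a.z and -0.04 in the combined line against Col. Without h2a.z 1 it was 0.11 in h2a.z against Col and -0.15 in the combined line against h2a.z. Without h3.3kd 2 it was -0.14 in the combined line against h3.3kd. For the interaction it was -0.02 when Col 1, h3.3kd 2 or h2a.z 1 was left out. Without Col 3 it was -0.45 in the combined line against Col and 0.28 for the interaction. Without combined 2 or combined 3 it was -0.16 in the combined line against h2a.z, where it was -0.08 with every library, and against h3.3kd it was 0.12 and 0.02.

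Direction depends in part on how libraries are scaled. Median-ratio scaling moved the median log2 fold change of all genes from -0.12 to -0.03 in h3.3kd against Col, and quantile normalization moved it to 0.02. For the knockdown in h2a.z plants the medians were -0.15, -0.02 and 0.06, and that of the SAUR genes went from -0.08 to 0.05 and 0.15. The split of SAUR calls there went from 2 higher and 10 lower to 4 and 7, and to 5 and 6. Over all genes the higher share of calls in that comparison went from 21.7% to 37.9% and 50.4%, and in h3.3kd against Col from 31.3% to 48.0% and 52.8%.

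**Figure D2:**
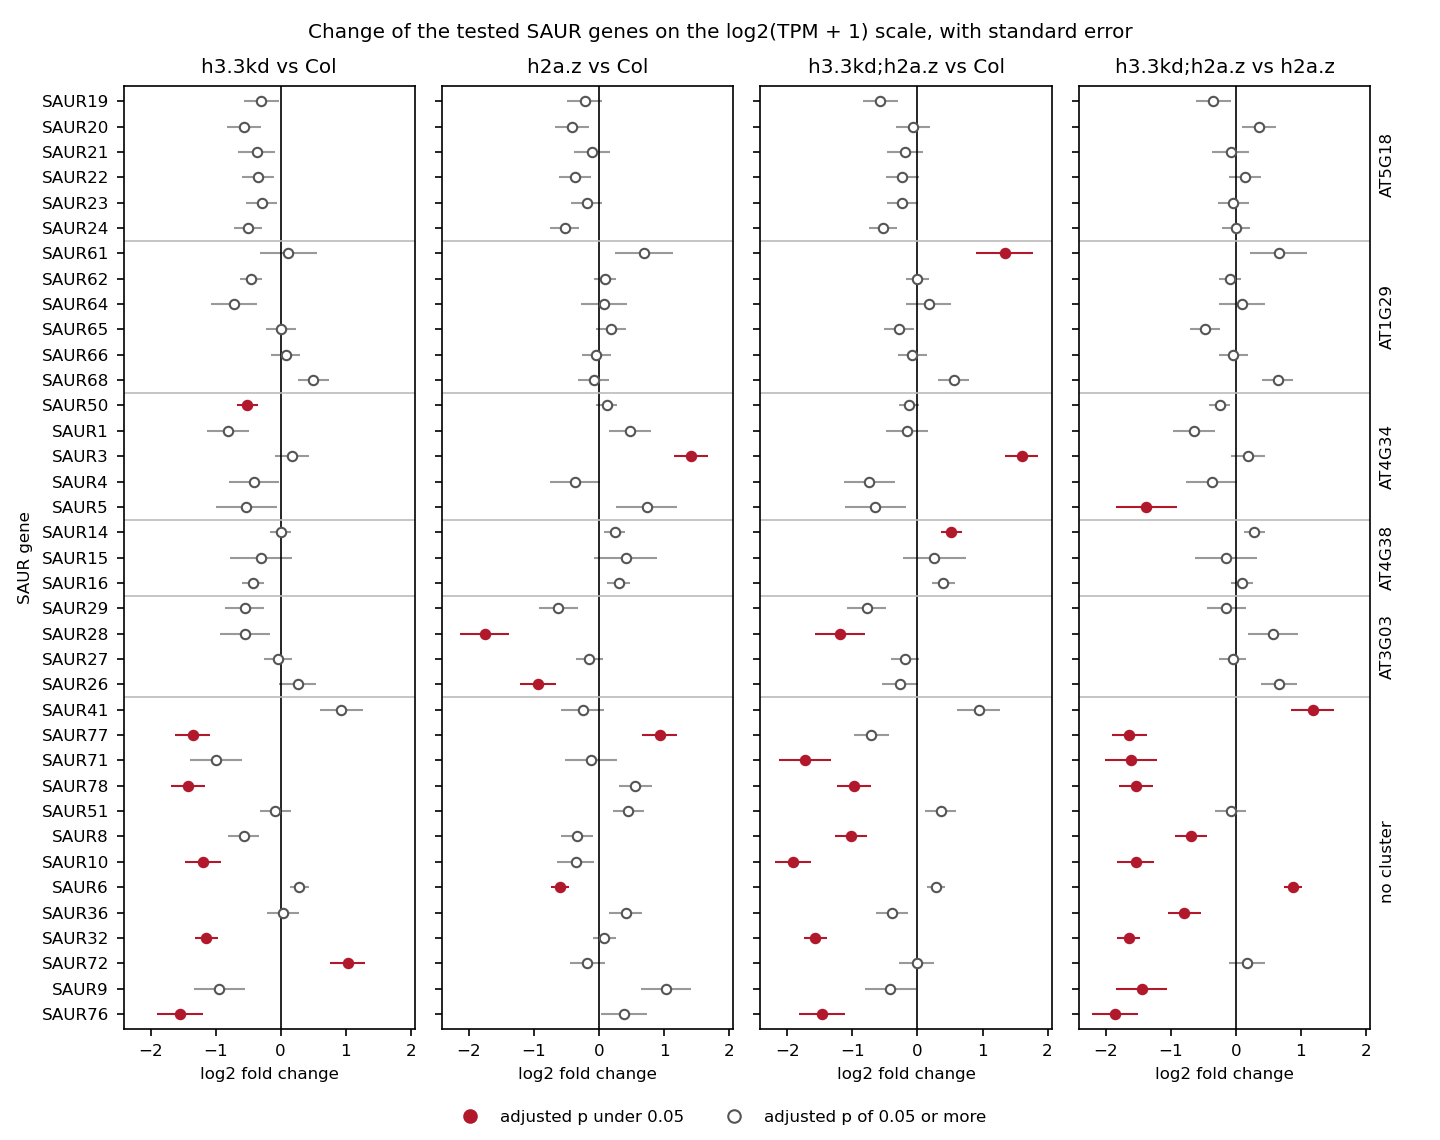
The horizontal axis is the log2 fold change on the log2(TPM + 1) scale of 37 SAUR genes (rows, by cluster) in 4 comparisons, bars are standard errors, and filled red points passed an adjusted p under 0.05. No AT5G18 gene is filled in any panel, and the filled points to the left in the panels for h3.3kd against Col and the combined line against h2a.z are mostly genes outside the clusters.

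The SAUR19 to SAUR24 cluster, whose proteins are the best known inhibitors of PP2C.D phosphatases, was not called in any of the 7 comparisons. The 6 genes summed to 167, 126 and 89.1 TPM in Col, 112, 70.1 and 100.4 in h3.3kd, 109, 90.1 and 99.2 in h2a.z and 87.4, 99.2 and 118 in the combined line. The Col libraries were the most spread, and every genotype overlapped with every other. Its genes moved together between libraries of 1 genotype: all 6 were highest in Col 1 and lowest in Col 3 among the Col libraries, and all 6 were lowest in h3.3kd 2 among the h3.3kd libraries. The high Col 1 was not particular to this cluster. Col 1 was also the highest Col library for 6 of 6 genes in AT1G29, 3 of 3 in AT4G38 and 4 of 4 in AT3G03. It was so for 3 of 5 in AT4G34 and 4 of 14 outside the clusters. The cluster mean was 127 ± 39.2 TPM in Col, 94.3 ± 21.7 in h3.3kd, 99.5 ± 9.46 in h2a.z and 101 ± 15.3 in the combined line (SD, n = 3).

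SAUR20, the member with the highest Col mean, was at 30.8, 25.4 and 17.6 TPM in Col, 21.2, 10.3 and 18.2 in h3.3kd, 24.3, 15.8 and 14.6 in h2a.z and 22.2, 22.3 and 24.1 in the combined line. SAUR23, the lowest, was at 24.1, 18.9 and 12.3 TPM in Col, 17.5, 11.0 and 15.5 in h3.3kd, 18.2, 14.4 and 14.0 in h2a.z and 11.9, 16.3 and 17.4 in the combined line. For both, the libraries of each mutant genotype overlapped with those of Col. The largest log2 fold change of the cluster in h3.3kd was that of SAUR20 (-0.56 ± 0.26, adjusted p = 0.15), and the 6 values ran from -0.56 to -0.29. In h2a.z they ran from -0.53 to -0.11 and in the combined line from -0.57 to -0.07. In limma 0 of 6 were called each time, with 2, 1 and 1 genes at an unadjusted p under 0.05.

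The AT1G29 cluster belongs to the SAUR63 subfamily, known for promoting growth of hypocotyls and stamen filaments. Its 6 listed genes with values summed to 108, 86.0 and 75.5 TPM in Col, 83.2, 97.6 and 87.4 in h3.3kd, 101, 97.6 and 82.6 in h2a.z and 92.1, 103 and 106 in the combined line, with overlap between all genotypes. Its highest member, SAUR66, was at 29.5, 18.9 and 18.1 TPM in Col, 24.1, 21.2 and 23.7 in h3.3kd, 23.8, 23.5 and 16.7 in h2a.z and 21.5, 26.5 and 14.9 in the combined line. Its libraries overlapped between all genotypes too. SAUR61, the lowest member, was at 1.64, 0.512 and 1.49 TPM in Col, 1.70, 0 and 3.72 in h3.3kd, 2.53, 3.56 and 1.57 in h2a.z and 5.39, 4.33 and 3.76 in the combined line. All 3 combined-line libraries were above the other 9, and h3.3kd reached from a listed 0 to 3.72. SAUR61 was called higher in the combined line against Col (1.34 ± 0.44, adjusted p = 0.045), on few reads (a median of 14 estimated reads). That call ended with a pseudocount of 0.1 (0.2) and with no filter (0.065) and when Col 1 (0.068), Col 2 (0.14), Col 3 (0.071), h2a.z 1 (0.06), h2a.z 2 (0.053), h2a.z 3 (0.052), combined 1 (0.13), combined 2 (0.11) or combined 3 (0.083) was left out. SAUR62 was lower in h3.3kd than in h2a.z (-0.54 ± 0.17, adjusted p = 0.022), a call that ended with median-ratio scaling (0.055), with quantile normalization (0.077) and with no other genotype modelled (0.054) and when h3.3kd 1 (0.077), h2a.z 2 (0.064) or h2a.z 3 (0.097) was left out. In h3.3kd against Col and in h2a.z against Col, limma called 0 of the 6 genes, with 1 and 0 at an unadjusted p under 0.05. SAUR68 (AT1G29510) was high in h3.3kd 2 (42.5 TPM) beside h3.3kd 1 (19.6) and h3.3kd 3 (20.4), and was not called against Col (0.50 ± 0.24, adjusted p = 0.17).

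Genes that lie among or beside the AT1G29 cluster were also called. AT1G29465, a protein-coding gene inside the cluster, was at 25.5, 18.2 and 20.8 TPM in Col, 52.4, 57.8 and 55.0 in h3.3kd, 29.9, 28.2 and 27.6 in h2a.z and 72.6, 81.9 and 80.0 in the combined line. Both lines with the knockdown were above every Col and h2a.z library. It rose in h3.3kd (1.33 ± 0.13, adjusted p = 2.7e-05) as well as in the combined line (1.83 ± 0.13, adjusted p = 6.7e-07) against Col. COR413IM1 (AT1G29395), a cold-regulated chloroplast membrane protein, rose in h3.3kd (1.22 ± 0.28, adjusted p = 0.0084), in h2a.z (1.22 ± 0.28, adjusted p = 0.0072) and in the combined line (1.68 ± 0.28, adjusted p = 0.00074), the first of these at 0.072 with no other genotype modelled. PAI3 (AT1G29410), an enzyme of tryptophan synthesis, was at 8.72, 4.09 and 6.10 TPM in Col, 6.59, 9.26 and 8.42 in h3.3kd, 0, 0 and 0 in h2a.z and 5.97, 7.51 and 5.29 in the combined line, so it was listed at 0 in every h2a.z library and near the Col level in the combined line. These neighbours were chosen by a rule that counts the nearest 5 genes of the table on each side and those between members. Of 13 such genes tested at AT1G29, 4 were called in h3.3kd, 3 in h2a.z and 2 in the combined line against Col (17.3%, 15.1% and 18.7% of all genes). Among them is AT1G29490, an annotated SAUR gene outside the 39 that lies inside the cluster and is not in its sum. It was called lower in h2a.z against Col (-1.11 ± 0.33, adjusted p = 0.034), which ended under 6 of 18 alternatives. AT1G29490 was higher in the combined line (1.54 ± 0.33, adjusted p = 0.0033) and in h3.3kd (1.26 ± 0.33, adjusted p = 0.0082) than in h2a.z.

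In the AT4G34 cluster, which member was called, and in which direction, differed between the comparisons against Col. In h3.3kd against h2a.z, 3 of its 5 genes were called, all lower, as were 24.7% of all genes. The 5 log2 fold changes there ran from -1.29 to -0.04. SAUR50, whose transcript is known to be induced by light in cotyledons, was at 85.4, 59.5 and 62.6 TPM in Col, 48.1, 50.9 and 43.9 in h3.3kd, 75.5, 71.1 and 76.3 in h2a.z and 52.1, 62.5 and 73.9 in the combined line. All 3 h3.3kd libraries were below the other 9. It was called lower in h3.3kd against Col (-0.51 ± 0.16, adjusted p = 0.037), the 1 called gene of any cluster in that comparison. The call ended with median-ratio scaling (0.082), with no other genotype modelled (0.13) and with the block in Col and h3.3kd (0.089) and when Col 1 (0.15), h3.3kd 1 (0.059), h3.3kd 3 (0.11), h2a.z 2 (0.052), h2a.z 3 (0.051) or combined 2 (0.054) was left out, with 0.031 to 0.15 over all alternatives. It was also lower in h3.3kd than in h2a.z (-0.63 ± 0.16, adjusted p = 0.0061).

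SAUR3, in the same cluster, was higher in both lines with h2a.z. It was at 4.77, 7.48 and 3.26 TPM in Col, 7.61, 6.17 and 3.80 in h3.3kd, 15.8, 16.6 and 12.4 in h2a.z and 17.2, 16.6 and 17.0 in the combined line. Every library with h2a.z lay above every library without it. SAUR3 rose in h2a.z against Col (1.42 ± 0.26, adjusted p = 0.0016) and in the combined line against h3.3kd (1.43 ± 0.26, adjusted p = 0.0052), comparisons that share no library. Against Col it was up in the combined line as well (1.60 ± 0.26, adjusted p = 0.00064), and none of these calls ended under any alternative run. It was not called with the H3.3 knockdown in plants with H2A.Z (0.17 ± 0.26, adjusted p = 0.7) or in h2a.z plants (0.18 ± 0.26, adjusted p = 0.66).

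The remaining AT4G34 genes were less steady. SAUR5, the lowest, was at 2.82, 1.62 and 2.29 TPM in Col, 2.34, 0 and 2.29 in h3.3kd, 3.37, 8.25 and 2.71 in h2a.z and 1.99, 0.197 and 1.36 in the combined line. All h2a.z libraries except h2a.z 3 were above every other library, and h2a.z 2 was far above the rest. SAUR5 was called lower in the combined line than in h2a.z (-1.38 ± 0.47, adjusted p = 0.045), which ended with a pseudocount of 0.1 (0.16), with no filter (0.062), with median-ratio scaling (0.071) and with quantile normalization (0.17) and when Col 2 (0.052), Col 3 (0.057), h2a.z 1 (0.072), h2a.z 2 (0.2), combined 2 (0.19) or combined 3 (0.078) was left out. SAUR1 was lower in h3.3kd than in h2a.z (-1.29 ± 0.32, adjusted p = 0.0062) and not called against Col (-0.81 ± 0.32, adjusted p = 0.096). SAUR4 passed no test, with adjusted p from 0.22 to 0.95 in the 6 comparisons between genotypes. As a sum, the cluster was 118, 92.4 and 76.9 TPM in Col, 68.3, 67.1 and 60.9 in h3.3kd, 118, 115 and 113 in h2a.z and 87.6, 92.1 and 104 in the combined line; the h3.3kd libraries were below all others, and those of h2a.z overlapped with Col alone. Beside this cluster, A/N-InvB (AT4G34860), an invertase, rose in h3.3kd (0.99 ± 0.19, adjusted p = 0.0036), at 0.054 with no other genotype modelled, and ADC2 (AT4G34710), an arginine decarboxylase of polyamine synthesis, was called higher there too (0.55 ± 0.15, adjusted p = 0.024), which ended with no other genotype modelled (0.12) and when Col 1 (0.091) or h3.3kd 2 (0.061) was left out. Of the 9 neighbours tested, 2 were called in that comparison, against 17.3% of all genes.

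**Figure D3:**
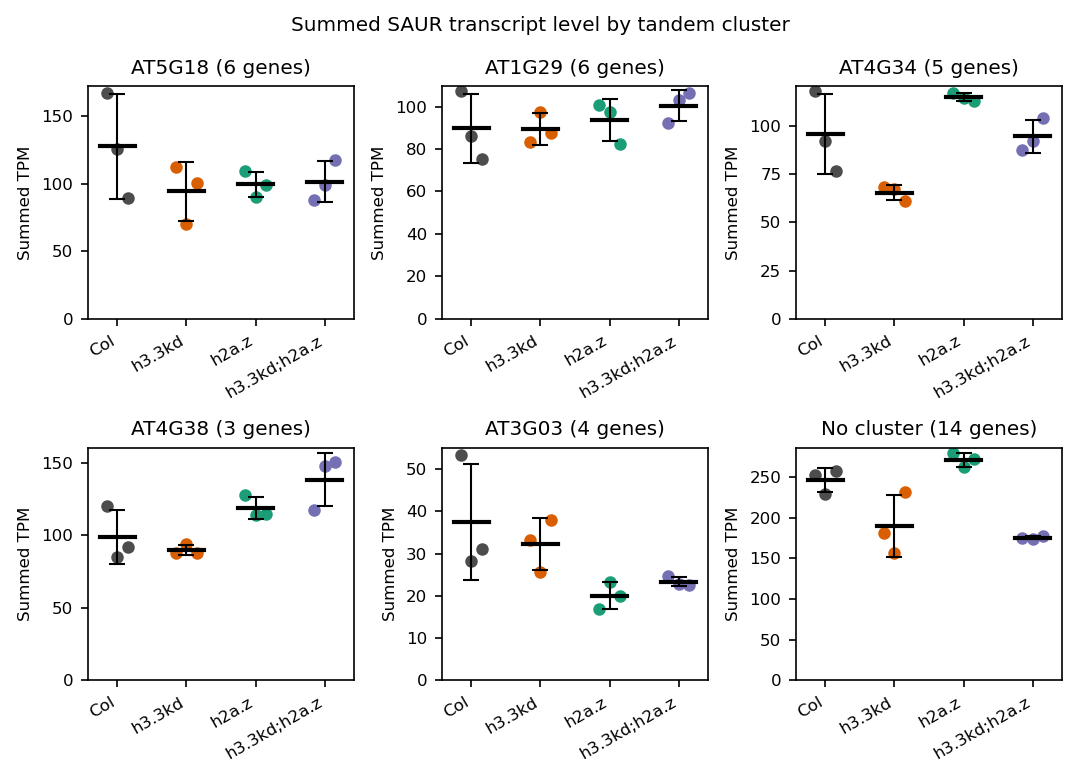
Points are the summed TPM of the SAUR genes of each tandem cluster, and of the 14 genes outside the clusters, in each library by genotype; lines are means and bars are SD of 3 libraries, and each axis starts at 0. The AT3G03 sum is at 16.8 to 24.7 TPM in the libraries of h2a.z and the combined line and at 25.7 to 53.3 TPM in Col and h3.3kd, while the AT5G18 and AT1G29 sums overlap between all genotypes.

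In the AT4G38 cluster, 1 of 3 genes was called in the combined line against Col, where 18.7% of all genes were called. SAUR14, its highest member and known as light-induced in cotyledons, was at 75.0, 54.7 and 62.0 TPM in Col, 55.8, 72.0 and 63.5 in h3.3kd, 83.6, 71.0 and 71.8 in h2a.z and 75.7, 101 and 100.4 in the combined line. All 3 combined-line libraries were above all of Col and h3.3kd and overlapped with h2a.z. It was called higher in the combined line against Col (0.52 ± 0.16, adjusted p = 0.031), a call that ended when Col 2 (0.11), Col 3 (0.077), combined 2 (0.13) or combined 3 (0.12) was left out. SAUR16, also light-induced, was at 42.6, 29.3 and 28.5 TPM in Col, 30.4, 22.0 and 21.4 in h3.3kd, 42.9, 39.6 and 39.9 in h2a.z and 40.9, 43.6 and 46.8 in the combined line. All libraries of the lines with h2a.z were above all of h3.3kd, and Col overlapped with both. SAUR16 was higher in the combined line than in h3.3kd (0.82 ± 0.17, adjusted p = 0.013), ending with no other genotype modelled (0.055) and when h3.3kd 3 (0.061), combined 2 (0.056) or combined 3 (0.068) was left out, and lower in h3.3kd than in h2a.z (-0.72 ± 0.17, adjusted p = 0.0046). The lowest gene, SAUR15, known as the auxin-induced SAUR-AC1, was at 2.65, 1.12 and 1.11 TPM in Col, 1.32, 0 and 2.78 in h3.3kd, 1.19, 3.48 and 2.94 in h2a.z and 0.630, 3.27 and 3.06 in the combined line, with all genotypes overlapping and no call. In h3.3kd against Col and in h2a.z against Col, limma called 0 of 3 genes, with 1 and 0 at an unadjusted p under 0.05.

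The AT3G03 cluster, the SAUR26 subfamily known from natural variation in growth at different temperatures, had 2 of its 4 genes called lower in h2a.z against Col. Of all genes, 4.56% were called lower there. SAUR28 was at 11.6, 4.62 and 7.50 TPM in Col, 5.05, 2.92 and 7.14 in h3.3kd, 0.780, 1.53 and 2.47 in h2a.z and 1.66, 2.25 and 4.84 in the combined line. All h2a.z libraries were below all Col libraries, and the combined line overlapped with Col by its replicate 3. SAUR28 fell in h2a.z against Col (-1.76 ± 0.38, adjusted p = 0.005), a call kept in every alternative (0.0016 to 0.031). It was also called lower in the combined line against Col (-1.19 ± 0.38, adjusted p = 0.039), but that ended with a pseudocount of 0.1 (0.059), with no filter (0.06), with median-ratio scaling (0.058), with quantile normalization (0.094) and with no other genotype modelled (0.054) and when Col 1 (0.17), Col 3 (0.087), h2a.z 2 (0.052), combined 1 (0.16) or combined 2 (0.12) was left out. In h3.3kd it stood above h2a.z (1.21 ± 0.38, adjusted p = 0.022), which ended when h3.3kd 1 (0.054), h3.3kd 3 (0.095), h2a.z 1 (0.1) or h2a.z 2 (0.055) was left out.

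SAUR26 was at 11.1, 10.2 and 6.94 TPM in Col, 10.9, 7.04 and 18.4 in h3.3kd, 4.18, 4.25 and 4.65 in h2a.z and 9.24, 6.93 and 6.48 in the combined line. Its h2a.z libraries were close together and below all 9 others. SAUR26 was called lower in h2a.z against Col (-0.94 ± 0.28, adjusted p = 0.034), which ended when Col 1 (0.11), Col 2 (0.096), h2a.z 1 (0.094), h2a.z 2 (0.1) or h2a.z 3 (0.079) was left out, and h3.3kd was above h2a.z (1.20 ± 0.28, adjusted p = 0.0039). SAUR29, the highest member in Col, was at 19.6, 7.14 and 9.19 TPM in Col, 7.79, 8.20 and 5.66 in h3.3kd, 5.27, 9.43 and 5.99 in h2a.z and 6.09, 6.33 and 5.45 in the combined line. Col 1 was far above the other 11 libraries, and SAUR29 was not called in h2a.z (-0.63 ± 0.30, adjusted p = 0.19) or the combined line (-0.78 ± 0.30, adjusted p = 0.085). SAUR27 passed no test (-0.15 ± 0.21, adjusted p = 0.73 in h2a.z). The cluster summed to 53.3, 28.2 and 31.0 TPM in Col, 33.1, 25.7 and 37.8 in h3.3kd, 16.8, 23.2 and 20.1 in h2a.z and 24.7, 22.8 and 22.6 in the combined line. All 6 libraries with h2a.z were below all 6 without it. In h3.3kd against Col, limma called 0 of 4 genes, with 0 at an unadjusted p under 0.05. Beside the cluster, MS2 (AT3G03780), a methionine synthase, rose in h2a.z (1.18 ± 0.21, adjusted p = 0.0015), as did AT3G03776 (1.53 ± 0.31, adjusted p = 0.0037). These were the 2 called of 9 neighbours tested, against 15.1% of all genes.

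Outside the clusters, 5 genes were called lower with the H3.3 knockdown both in plants with H2A.Z and in h2a.z plants. SAUR32, also known as AAM1 and linked to apical hook maintenance, was at 62.1, 62.2 and 63.1 TPM in Col, 31.0, 19.9 and 35.0 in h3.3kd, 61.5, 60.5 and 77.5 in h2a.z and 19.7, 23.0 and 18.6 in the combined line. Col and h2a.z lay between 60.5 and 77.5 TPM, and every library of the lines with the knockdown lay at 35.0 TPM or less. SAUR32 fell in h3.3kd against Col (-1.14 ± 0.18, adjusted p = 0.001), in the combined line against h2a.z (-1.65 ± 0.18, adjusted p = 1.9e-05) and in the combined line against Col (-1.57 ± 0.18, adjusted p = 4.5e-05). None of these calls ended under an alternative. Its change in h2a.z was 0.08 ± 0.18 (adjusted p = 0.83).

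SAUR76, SAUR77 and SAUR78 form a group whose proteins are known to interact with ethylene receptors, and SAUR76 is also known as RAG1, an auxin-responsive gene of leaf growth. SAUR78 was at 67.6, 59.7 and 75.9 TPM in Col, 16.9, 20.1 and 43.7 in h3.3kd, 111, 106 and 84.3 in h2a.z and 29.7, 33.9 and 38.6 in the combined line. The knockdown lines lay below all Col and h2a.z libraries, and h2a.z lay above Col. It fell in h3.3kd against Col (-1.42 ± 0.26, adjusted p = 0.0024), in the combined line against h2a.z (-1.53 ± 0.26, adjusted p = 0.00066) and in the combined line against Col (-0.97 ± 0.26, adjusted p = 0.018), the last ending when Col 3 (0.061), combined 1 (0.071) or combined 2 (0.053) was left out. In h2a.z against Col it was not called (0.56 ± 0.26, adjusted p = 0.18).

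SAUR77 was at 2.10, 3.50 and 1.39 TPM in Col, 0.497, 0 and 0.348 in h3.3kd, 7.05, 4.54 and 4.19 in h2a.z and 0.888, 0.975 and 1.05 in the combined line. The 3 h2a.z libraries were the highest of the 12 and those of h3.3kd the lowest. SAUR77 fell in h3.3kd against Col (-1.35 ± 0.27, adjusted p = 0.0042) and in the combined line against h2a.z (-1.64 ± 0.27, adjusted p = 0.00055), and was not called in the combined line against Col (-0.71 ± 0.27, adjusted p = 0.086). It was called higher in h2a.z against Col (0.93 ± 0.27, adjusted p = 0.031), which ended with a pseudocount of 0.1 (0.23), with quantile normalization (0.063) and with no other genotype modelled (0.053) and when Col 1 (0.08), Col 3 (0.14), h2a.z 1 (0.15), h2a.z 2 (0.072) or h2a.z 3 (0.054) was left out. Between h3.3kd and h2a.z it had the largest log2 fold change of the 37 genes (-2.28 ± 0.27, adjusted p = 2.1e-05).

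SAUR76 was at 2.62, 2.11 and 2.76 TPM in Col, 0.292, 0 and 0.307 in h3.3kd, 2.45, 2.08 and 7.83 in h2a.z and 0.696, 0 and 0.169 in the combined line. All 6 libraries with the knockdown were at 0.696 TPM or less and all others at 2.08 TPM or more, on a median of 8 estimated reads. It fell in h3.3kd against Col (-1.55 ± 0.35, adjusted p = 0.0081), at 0.052 with quantile normalization, in the combined line against h2a.z (-1.86 ± 0.35, adjusted p = 0.0014) and in the combined line against Col (-1.47 ± 0.35, adjusted p = 0.0089). SAUR10, known to respond to auxin and brassinosteroid in stems, was at 6.80, 3.82 and 3.94 TPM in Col, 1.05, 1.68 and 1.85 in h3.3kd, 3.68, 2.31 and 4.63 in h2a.z and 0.698, 0.828 and 0.136 in the combined line. Every library with the knockdown was below every library without it. SAUR10 fell in h3.3kd against Col (-1.19 ± 0.28, adjusted p = 0.011), ending with the block in Col and h3.3kd (0.061) and when Col 1 (0.054) was left out, in the combined line against h2a.z (-1.54 ± 0.28, adjusted p = 0.0012) and in the combined line against Col (-1.91 ± 0.28, adjusted p = 0.00034).

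The comparisons of h3.3kd with Col and of the combined line with h2a.z share no library. These 5 genes are 71.4% of the 7 SAUR genes called in the former and 41.7% of the 12 called in the latter. Over all genes, 1939 were called in both with the same direction, 56.2% of 3450 and 39.4% of 4916. Without h3.3kd 2 all 5 were still called in h3.3kd against Col, at log2 fold changes of -0.90 for SAUR32, -1.27 for SAUR78, -1.18 for SAUR77, -1.42 for SAUR76 and -1.24 for SAUR10.

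Root markers were summed as a measure of root RNA in the libraries. The 12 root markers summed to 177 to 208 TPM in Col, 89.8 to 179.9 in h3.3kd, 241 to 269.9 in h2a.z and 132 to 144 in the combined line, with 9 to 12 of 12 above 0 in a library and NRT2:1 at 0 in all of the combined line. Of 11 tested, 5 were lower in the combined line than in Col and 4 in h3.3kd (12.6% and 11.9% of all genes). In h2a.z against Col 2 were higher (10.5% of all genes). IRT1 (AT4G19690), the root iron transporter, was the one with the lowest log2 fold change in the combined line (-2.29 ± 0.32, adjusted p = 0.00022). The sum was below every Col library in the combined line, overlapped with Col in h3.3kd and was above every Col library in h2a.z. Its part in the falls of SAUR76, SAUR77, SAUR78, SAUR32 and SAUR10 was not tested. Seed and embryo markers (8 genes) summed to 8.70 to 14.2 TPM in Col, 64.8 to 131 in h3.3kd, 64.2 to 164 in h2a.z and 193 to 428 in the combined line, with CRU2 at 0 in every Col library. Leaf markers summed to 41210 to 48760 TPM in Col, 37080 to 47850 in h3.3kd, 34290 to 39700 in h2a.z and 47910 to 49230 in the combined line, with all of them above 0 in every library. Of 12 leaf markers, 1 was higher and 4 lower in h3.3kd, 1 was lower in h2a.z and 1 was higher in the combined line against Col.

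**Figure D4:**
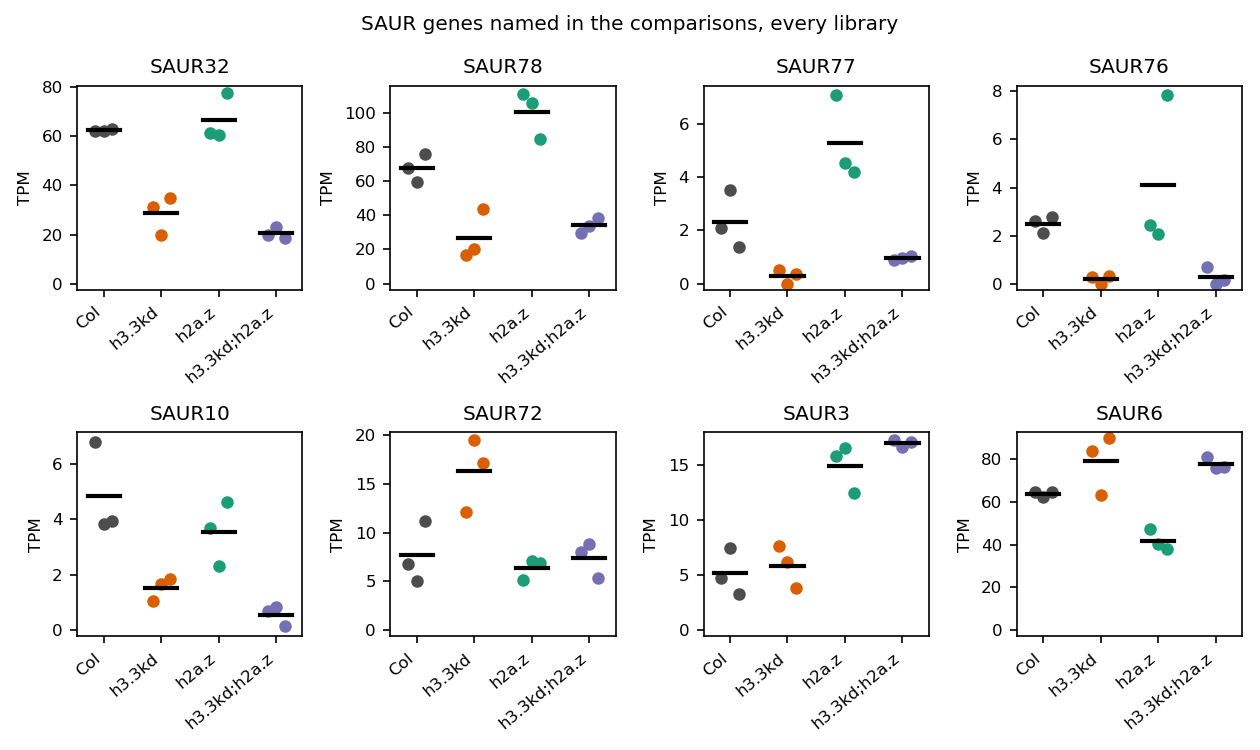
Points are the TPM of 8 SAUR genes in each library by genotype, lines are means of 3 libraries, and every axis includes 0. SAUR32, SAUR78, SAUR76 and SAUR10 are lower in both lines with the H3.3 knockdown, SAUR3 is higher in both lines with h2a.z, SAUR72 is highest in h3.3kd and SAUR6 is lowest in h2a.z.

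SAUR71 and SAUR72 belong to the SAUR41 subfamily, which is known to promote cell expansion. SAUR71 was at 7.97, 5.62 and 6.62 TPM in Col, 2.39, 1.96 and 4.77 in h3.3kd, 3.95, 7.45 and 7.39 in h2a.z and 1.65, 0.148 and 3.06 in the combined line. The combined line lay below all Col and h2a.z libraries. SAUR71 fell in the combined line against Col (-1.73 ± 0.40, adjusted p = 0.0072) and against h2a.z (-1.61 ± 0.40, adjusted p = 0.0082), in every alternative, and was not called in h3.3kd (-0.99 ± 0.40, adjusted p = 0.1). SAUR72 went the other way, at 6.73, 5.05 and 11.2 TPM in Col, 12.1, 19.5 and 17.2 in h3.3kd, 5.16, 7.11 and 6.88 in h2a.z and 7.98, 8.87 and 5.33 in the combined line. All 3 h3.3kd libraries were above all 9 others. It was called higher in h3.3kd against Col (1.03 ± 0.27, adjusted p = 0.018), which ended with no other genotype modelled (0.093) and with the block in Col and h3.3kd (0.071) and when Col 1 (0.057), Col 2 (0.069) or h3.3kd 3 (0.053) was left out, and it was above h2a.z as well (1.21 ± 0.27, adjusted p = 0.003). In the combined line it was not called against Col (-0.01 ± 0.27, adjusted p = 0.98) and was called lower than in h3.3kd (-1.04 ± 0.27, adjusted p = 0.042). That last call ended under 12 of 18 alternatives, with a pseudocount of 0.1 (0.051), with no filter (0.069), with the replicate block (0.05) and with no other genotype modelled (0.096) and when h3.3kd 2 (0.08), h3.3kd 3 (0.13), h2a.z 1 (0.051), h2a.z 2 (0.058), h2a.z 3 (0.059), combined 1 (0.092), combined 2 (0.07) or combined 3 (0.19) was left out.

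SAUR41, the founding gene of that subfamily, was at 8.41, 5.80 and 5.30 TPM in Col, 14.6, 8.55 and 17.5 in h3.3kd, 2.50, 9.12 and 5.81 in h2a.z and 14.2, 13.8 and 11.5 in the combined line. The knockdown lines were mostly above the others. SAUR41 was called higher in the combined line than in h2a.z (1.18 ± 0.33, adjusted p = 0.018), ending when h2a.z 1 (0.088), combined 1 (0.063) or combined 2 (0.057) was left out. It was also called higher in h3.3kd than in h2a.z (1.17 ± 0.33, adjusted p = 0.014), ending when h3.3kd 3 (0.064) or h2a.z 1 (0.07) was left out. Against Col it was not called in h3.3kd (0.93 ± 0.33, adjusted p = 0.071) or the combined line (0.94 ± 0.33, adjusted p = 0.066), although the libraries of neither line overlapped with Col.

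SAUR6 was the highly expressed gene that was lower in h2a.z. It was at 64.5, 62.5 and 64.7 TPM in Col, 83.7, 63.4 and 89.9 in h3.3kd, 47.4, 40.3 and 38.1 in h2a.z and 80.9, 76.1 and 76.2 in the combined line. All h2a.z libraries were below all 9 others, and the combined line was above Col. SAUR6 fell in h2a.z against Col (-0.60 ± 0.14, adjusted p = 0.0081), at 0.05 without h2a.z 3. It was higher in the combined line than in h2a.z (0.88 ± 0.14, adjusted p = 0.00038) and in h3.3kd than in h2a.z (0.89 ± 0.14, adjusted p = 0.00021), in every alternative. Its interaction was not called (0.59 ± 0.20, adjusted p = 0.16). The summed leaf markers were likewise lower in every h2a.z library than in every Col library, and their part in the SAUR6 level was not tested.

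SAUR8 and SAUR9 are low genes, SAUR9 being another known inhibitor of PP2C.D phosphatases. SAUR8 was at 1.50, 1.95 and 1.12 TPM in Col, 0.552, 0.945 and 0.582 in h3.3kd, 1.06, 0.779 and 1.12 in h2a.z and 0.565, 0.139 and 0.0457 in the combined line, so that all 3 libraries of the combined line were below all of Col. It fell in the combined line against Col (-1.02 ± 0.24, adjusted p = 0.0079) on a median of 6.60 estimated reads. Its call against h2a.z (-0.69 ± 0.24, adjusted p = 0.048) ended under 13 of 18 alternatives, with median-ratio scaling (0.058), with quantile normalization (0.72) and with the replicate block (0.063) and when Col 1 (0.055), Col 2 (0.052), Col 3 (0.054), h3.3kd 1 (0.053), h3.3kd 3 (0.056), h2a.z 1 (0.14), h2a.z 2 (0.09), h2a.z 3 (0.16), combined 2 (0.14) or combined 3 (0.17) was left out. SAUR9 ran from 2.86 to 6.21 TPM in h2a.z and from a listed 0 to 0.435 in h3.3kd, which did not overlap. It was lower in h3.3kd than in h2a.z (-1.98 ± 0.39, adjusted p = 0.0013) and in the combined line than in h2a.z (-1.45 ± 0.39, adjusted p = 0.014), the latter ending with quantile normalization (0.098) and when h2a.z 1 (0.078), combined 1 (0.068) or combined 2 (0.058) was left out. SAUR36, known from leaf senescence as SAG201, was called lower in the combined line than in h2a.z (-0.79 ± 0.25, adjusted p = 0.031), ending with median-ratio scaling (0.059) and with quantile normalization (0.099) and when h2a.z 1 (0.13), h2a.z 3 (0.098), combined 1 (0.097) or combined 2 (0.11) was left out. In h3.3kd against h2a.z, SAUR32 (-1.21 ± 0.18, adjusted p = 0.00015), SAUR78 (-1.97 ± 0.26, adjusted p = 4.8e-05), SAUR76 (-1.93 ± 0.35, adjusted p = 0.00066) and SAUR3 (-1.24 ± 0.26, adjusted p = 0.0018) were lower, and SAUR10 was called lower (-0.82 ± 0.28, adjusted p = 0.036), which ended with a pseudocount of 0.1 (0.1), with quantile normalization (0.48) and with no other genotype modelled (0.053) and when h3.3kd 1 (0.11), h2a.z 1 (0.098) or h2a.z 3 (0.16) was left out. SAUR51 passed no test in any comparison, and SAUR25 ran from a listed 0 to 1.91 TPM and was at 0 in 6 of 12 libraries.

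Promoters were searched for elements that are known in SAUR genes, in the 250 bases before each annotated start (RefSeq annotation of TAIR10.1). TGTCTC, an auxin response element, was found on either strand in 6 of 39 SAUR promoters (15.4%), against 10.9% of 27443 promoters of all genes. Of these, 3 were in AT1G29, 2 in AT5G18, 1 in AT4G38 and 0 outside the clusters. TGTCGG, a stronger form, was in 2 (5.13% against 4.16%), and CACGTG, the G-box that PIF and BZR factors bind, in 0 (0% against 6.49%). TATAAA on the gene strand was in 14 (35.9% against 32.9%). The 100 bases before the start are shown for 4 genes called in several comparisons, SAUR32, SAUR78, SAUR3 and SAUR6, with any of these motifs in capitals. They lie at chr2:19180605-19180704 (plus strand), chr1:27265807-27265906 (minus), chr4:16594262-16594361 (plus) and chr2:9086030-9086129 (minus), and only TATAAA occurs in them, in SAUR32 and SAUR3.
SAUR32: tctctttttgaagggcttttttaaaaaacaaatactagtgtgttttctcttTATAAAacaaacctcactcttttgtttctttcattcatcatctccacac
SAUR78: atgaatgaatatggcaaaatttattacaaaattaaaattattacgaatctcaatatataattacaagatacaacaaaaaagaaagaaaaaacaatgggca
SAUR3: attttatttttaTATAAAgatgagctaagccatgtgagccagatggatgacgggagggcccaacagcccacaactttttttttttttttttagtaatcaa
SAUR6: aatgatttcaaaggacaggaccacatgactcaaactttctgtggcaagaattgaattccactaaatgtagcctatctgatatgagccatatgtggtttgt
These letters describe the windows only, and no binding of a factor or nucleosome was measured.

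Of the proteins that SAUR proteins act on, the 9 PP2C.D phosphatase genes had 1 higher and 1 lower in h3.3kd, and 1 higher and 1 lower in the combined line, against Col. Of all genes, 17.3% and 18.7% were called in these comparisons. In h2a.z against Col limma called 0 of 9, with 1 at an unadjusted p under 0.05. AT5G02760 was at 138, 118 and 79.5 TPM in Col, 54.9, 41.8 and 26.8 in h3.3kd, 66.3, 95.4 and 103 in h2a.z and 38.2, 48.2 and 46.1 in the combined line. Its libraries in the knockdown lines were below all those of Col and h2a.z. It fell in h3.3kd (-1.44 ± 0.25, adjusted p = 0.0017) as well as in the combined line (-1.29 ± 0.25, adjusted p = 0.0025) against Col, in every alternative. Of 8 tested proton ATPase genes, HA5 (AT2G24520) was at 14.7, 14.4 and 13.5 TPM in Col, 5.97, 7.02 and 9.02 in h3.3kd, 11.2, 11.6 and 11.1 in h2a.z and 6.39, 7.36 and 5.37 in the combined line. All knockdown libraries were below all others. HA5 was called lower in h3.3kd (-0.88 ± 0.18, adjusted p = 0.0045), which ended with no other genotype modelled (0.058) and with the block in Col and h3.3kd (0.072), and fell in the combined line (-1.05 ± 0.18, adjusted p = 0.00099). HA8 (AT3G42640) fell in the combined line against Col (-1.36 ± 0.30, adjusted p = 0.0058).

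Of 12 transcription factors known upstream of SAUR genes, PIF4 (AT2G43010), the factor of warmth-induced elongation, was at 35.7, 30.1 and 45.1 TPM in Col, 37.0, 32.1 and 40.8 in h3.3kd, 29.6, 17.8 and 16.1 in h2a.z and 19.1, 19.5 and 17.9 in the combined line. The combined line was below all of Col and h3.3kd. PIF4 was called lower in h2a.z against Col (-0.81 ± 0.21, adjusted p = 0.016), which ended when Col 3 (0.079), h2a.z 2 (0.081) or h2a.z 3 (0.09) was left out, and fell in the combined line (-0.92 ± 0.21, adjusted p = 0.0067), and was not called in h3.3kd (0.00 ± 0.21, adjusted p = 1). PIF3 (AT1G09530) was called higher in h3.3kd (0.68 ± 0.19, adjusted p = 0.024), ending with no other genotype modelled (0.12) and with the block in Col and h3.3kd (0.12) and when Col 2 (0.088) or h3.3kd 2 (0.055) was left out. No other of the 12 was called against Col in any line. Of 6 auxin receptor genes, GRH1 was called lower in h3.3kd (-0.45 ± 0.12, adjusted p = 0.024), ending with no other genotype modelled (0.14) and with the block in Col and h3.3kd (0.094) and when Col 3 (0.085), h3.3kd 1 (0.064) or h3.3kd 3 (0.062) was left out, and AFB3 (AT1G12820) was called higher in h3.3kd (0.52 ± 0.15, adjusted p = 0.025), ending with no other genotype modelled (0.15) and when Col 1 (0.099), h3.3kd 2 (0.057) or h3.3kd 3 (0.076) was left out. Among 7 tested GH3 genes, a family of auxin conjugation of which only some members are auxin-induced, 2 were called higher in h3.3kd against Col. In h2a.z against Col 2 were higher and 1 lower, and so it was in the combined line. Of all genes, 5.41% were higher in h3.3kd, and 10.5% were higher and 4.56% lower in h2a.z. In the combined line 6.17% were higher and 12.6% lower. GH3.9 (AT2G47750) was at 0.731, 0.837 and 0.588 TPM in Col, 1.68, 4.08 and 2.86 in h3.3kd, 1.97, 3.01 and 2.94 in h2a.z and 5.02, 5.37 and 5.21 in the combined line. All mutant libraries were above all of Col. GH3.9 rose in h3.3kd (1.13 ± 0.24, adjusted p = 0.0063), at 0.053 with no other genotype modelled, in h2a.z (1.07 ± 0.24, adjusted p = 0.0072) and in the combined line (1.85 ± 0.24, adjusted p = 0.00012). WES1 (AT4G27260) was called higher in h3.3kd (0.50 ± 0.14, adjusted p = 0.028), ending with no other genotype modelled (0.12) and with the block in Col and h3.3kd (0.059) and when Col 1 (0.11), Col 3 (0.054) or h3.3kd 2 (0.059) was left out. The same gene was called lower in h2a.z (-0.52 ± 0.14, adjusted p = 0.023), ending when Col 2 (0.099), Col 3 (0.071), h2a.z 1 (0.066) or h2a.z 3 (0.1) was left out. BRU6 (AT4G37390) was called higher in h2a.z (0.96 ± 0.23, adjusted p = 0.012), ending when Col 1 (0.053) or h2a.z 2 (0.072) was left out. In the combined line BRU6 was called higher too (0.84 ± 0.23, adjusted p = 0.022), ending when Col 1 (0.1), combined 2 (0.11) or combined 3 (0.064) was left out. DFL1 (AT5G54510) was called lower in the combined line (-0.64 ± 0.17, adjusted p = 0.017), ending when Col 2 (0.066), combined 1 (0.08) or combined 3 (0.057) was left out.

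The 41 other annotated SAUR genes, AT1G29490 among them, were otherwise taken by counts only, 26 of them tested. Of these, 4 were lower in h3.3kd against Col, as were 11.9% of all genes. In h2a.z against Col 4 were higher and 4 lower (10.5% and 4.56% of all genes). In the combined line against Col 7 were lower (12.6% of all genes). Median log2 fold changes were -0.45, 0.22 and -0.32 in that order, against -0.12, 0.05 and -0.10 over all genes. In the combined line against h2a.z, 1 was higher and 6 lower (5.34% and 19.3% of all genes). For the interaction limma called 0 of 26, with 6 at an unadjusted p under 0.05, against 2.49% of all genes called.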

How the data were processed

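Expression was deposited by the authors as a table of TPM (transcripts per 1000000) for 23387 genes in 12 libraries. Each column summed to 1000000. Per the submitters' processing notes, fastp 0.20.1, HISAT2, HTSeq 0.11.2, DESeq2 1.26.0 and the TAIR10 build were used; their settings, use of strand and handling of reads that match several genes were not stated there. Reads could not be recovered as whole numbers for all genes: 43.6% to 47.4% of values under 10 reads came within 0.1 of a whole read, against 20% if spread evenly, so read numbers are estimates. Precision is shown by the spread of 3 libraries.

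Values were log2-transformed with a pseudocount of 1, which understates changes of low genes. Genes at 1 TPM or more in at least 3 libraries were kept (19937), and limma 3.58.1 in R 4.3.3 fitted the 4 genotype means with a mean-variance trend. P-values were Benjamini-Hochberg adjusted over all tested genes of a comparison and a gene was called below 0.05. Fold changes are log2(TPM + 1) differences ± standard error. The method was tested on simulated data. Sequences, names (23235 genes matched) and motifs were read from RefSeq's TAIR10.1 annotation with Python 3.11.15 and Biopython 1.88.

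The genes and lists were chosen with earlier results of these data known. Values in every library are given for the highest and lowest member of each cluster by Col mean and for up to 4 called members each way per comparison with the smallest adjusted p; others are given by count, range or test. Outside the family, named genes are the targeted histones, PIF4, up to 3 called genes per list and comparison, and called neighbours of clusters with called members. AT1G29490, a SAUR gene outside the list, was named in addition as a called gene inside AT1G29. Alternatives were another pseudocount, no filter, 2 scalings, a replicate block, models of the genotypes compared alone and each library left out. Same-numbered Col and h3.3kd libraries deviated together (correlations 0.115 to 0.314), the only pair of genotypes above 0.1 throughout. Col 3, at 0.115, correlated at least as highly with an h3.3kd library of another number. The block for these genotypes alone was added after seeing the data.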

Additional observations from a re-analysis of the deposited data

Results flagged for a closer look

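The change with the H3.3 knockdown differed between h2a.z plants and plants with H2A.Z, by limma's test, for 3 genes named beside the SAUR family. The alleles are not listed, and whether h2a.z and the combined line differ in more than the knockdown was not tested. For HTA9 the difference was 1.71 ± 0.31, adjusted p = 0.0073 on the log2(TPM + 1) scale. For PAI3, which was listed at 0 in all h2a.z libraries, it was 2.49 ± 0.34, adjusted p = 0.0012, and no fold is drawn from it. For A/N-InvB it was -1.49 ± 0.27, adjusted p = 0.0086.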

How the results depend on the processing

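Of 53 calls of SAUR genes over all comparisons, 31 were kept in every alternative and 22 ended in at least 1, and no called value of a SAUR gene changed sign. Values that were not called did, such as SAUR5 (-0.53 to 0.05) and SAUR15 (-0.30 to 0.22) in h3.3kd against Col without h3.3kd 2. The count for h3.3kd against Col went from 7 to 4 with the replicate block in Col and h3.3kd alone (all genes, from 3450 to 1728), and that for the combined line against h3.3kd from 3 to 1 in a model of these genotypes alone. With the replicate block in the model of all genotypes the counts were 7 in h3.3kd, 5 in h2a.z and 10 in the combined line against Col, 2 and 11 in the combined line against h3.3kd and h2a.z, 17 in h3.3kd against h2a.z and 0 for the interaction. Other same-numbered libraries correlated at -0.176 to 0.158, so their numbers were not taken as pairs.

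Leaving out 1 library gave 4 to 9 calls in h3.3kd, 2 to 6 in h2a.z and 6 to 12 in the combined line against Col. It gave 1 to 4 for the combined line against h3.3kd, 7 to 14 against h2a.z, 13 to 18 for h3.3kd against h2a.z and 0 to 1 for the interaction. Over all genes, models of the genotypes compared alone called 1071 in h3.3kd against Col, 380 in the combined line against h3.3kd (848 in the full model) and 7872 against h2a.z (4916). A pseudocount of 0.1 called 268 for the interaction (496). The cause of these moves was not tested. SAUR5, SAUR8, SAUR9, SAUR10, SAUR15, SAUR25, SAUR28, SAUR61, SAUR76 and SAUR77 rest on a median under 20 estimated reads, which limits their precision.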
